A study of Mus musculus with 6 samples.

Results

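The nuclear receptors expressed in or known from hepatocytes were examined as a group of 34 genes, taken as every row of the deposited table whose gene name was on the list of receptors. All 34 were found among the 25718 genes of the table. The RNA of 6 libraries came from primary hepatocytes of male mice, prepared by collagenase perfusion of the liver and Percoll separation. The mice were aged 8 to 10 weeks when feeding began. WT mice were compared with S100a16KO+/- mice, with 3 libraries per genotype, and the sample labels call the second genotype an S100A16 knockdown. S100a16 encodes a calcium-binding protein of the S100 family. The S100a16KO+/- mice carried 1 allele in which exons 2 to 3 had been flanked by loxP sites and removed by EIIa-Cre, a transgene active in the early embryo, so the deletion was not limited to the liver. Loss of both alleles is lethal, which is why heterozygotes were used, on a background that was over 98% C57BL/6. Mice of both genotypes were fed alcohol: 5 days of control diet, 10 days of a diet with 5% ethanol and a final gavage of 5 g/kg ethanol, with collection 9 h later. No library from mice without alcohol was analysed here, so the comparison gives the effect of genotype under alcohol and not that of alcohol. Whether a library held cells of 1 mouse or of several, and whether mice were littermates, is not given in the sources used here, and the p-values measure the spread between these libraries.

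Nuclear receptors are transcription factors that bind DNA through a zinc finger domain, many of them switched by a small fat-soluble ligand such as a steroid, retinoid, fatty acid, sterol or drug. In the liver they set the rates of fatty acid oxidation, lipid and glucose synthesis, bile acid production and drug clearance. Most of the metabolic sensors bind as a pair with a retinoid X receptor (RXR), steroid receptors bind as pairs of themselves, and the NR4A receptors act without a known ligand and are controlled mainly through how much of them is made. The receptors recruit coactivators or corepressors, so the messenger RNA of a receptor does not by itself measure its activity.

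The 6 libraries held 67658095 to 71807834 estimated counts each. Levels are given below as CPM, counts per library total after scaling by the trimmed mean of M values (TMM), when libraries are compared, and as FPKM, which is per transcript length, when genes are compared. A count of 0 in a library allows up to 0.167 to 0.187 CPM (3 fragments, counting error only). S100a16, the targeted gene, had 1001, 1056 and 1107 counts in WT and 433, 390 and 366 in S100a16KO+/-. The fall from 15.3 ± 0.796 to 5.80 ± 0.628 CPM (SD, n = 3) was a log2 change of -1.40 (SE 0.11, edgeR adjusted p = 4.14e-07), and the groups did not overlap. The genotypes separated on the first principal component, with 58.9% of the variance. WT replicate 1 and S100a16KO+/- replicate 2 stood apart from the other 4 libraries on the second component (12.8%) and had the highest share of mitochondrial counts in their genotype, 21.1% and 20.1% in a range of 17.0 to 21.1%. Calls that change without both of them are given beside the result. The 8 hepatocyte markers, led by Alb, summed to 113705 to 125647 CPM in WT and 109901 to 121859 CPM in S100a16KO+/-. Alb alone had means of 88524 and 85458 CPM, so the sum mostly follows Alb. None of the 8 was higher, and Ttr (log2 change -0.33) and Cyp2e1 (-0.33) were lower. Markers of sinusoidal endothelial cells summed to 274 to 291 CPM in WT and 397 to 414 in S100a16KO+/-, with 7 of 8 higher and Lyve1 lower. The stellate cell markers summed to 37.1 to 40.4 and 67.1 to 73.8 CPM, with 4 of 8 higher and none lower. Kupffer cell markers summed to 129.6 to 159 and 151 to 164 CPM (1 of 8 higher, none lower), cholangiocyte markers to 4.59 to 6.43 and 4.89 to 5.47 CPM (none of 4 tested higher, 1 lower) and leukocyte markers to 7.92 to 10.8 and 10.4 to 11.9 CPM (none of 6 passed). No marker was at or under the level of 3 fragments in all libraries. The part of these cells in the receptor values was not tested, and in bulk libraries a different number of cells of a type and a different amount of RNA per cell cannot be told apart.

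Levels of the receptors differed widely between genes. Nr1i3, which encodes the xenobiotic sensor CAR, was the most abundant at 86.9 ± 6.11 FPKM in WT and 78.1 ± 9.0 in S100a16KO+/-. Hnf4a, a factor that maintains hepatocyte identity, followed with 47.9 ± 0.562 and 49.2 ± 0.861 FPKM, and Rxra, the main RXR of the liver, with 29.3 ± 2.08 and 26.4 ± 2.26 FPKM. These 3 genes made up 57.3 ± 0.223% of the summed FPKM of all members in WT and 57.5 ± 0.666% in S100a16KO+/-. The summed FPKM itself was 286.2 ± 15.5 and 267.2 ± 17.2. Nr1i2 (PXR, 22.2 FPKM in WT), Nr2f6 (15.4), Nr1h3 (LXR alpha, 15.2) and Ppara (11.1) came next, and the WT ranges of Nr2f6 and Nr1h3 overlapped. Neighbours among the 4 most abundant genes did not overlap in WT, whereas between ranks 14 and 24 every gene overlapped the gene below it except Nr3c2, the last of them. In S100a16KO+/- the order changed most for Nr4a1, which went from rank 15 to rank 7. Nr3c1 moved from rank 8 to 12, Pparg from rank 17 to 22 and Rarg from rank 21 to 16. The WT ranks of Nr4a1, Pparg and Rarg lie among those that overlapped. At the other end, Vdr, the vitamin D receptor, had counts of 0, 0 and 8 in WT and 0 in all S100a16KO+/- libraries, and Hnf4g had 10, 17 and 11 counts in WT and 4, 8 and 8 in S100a16KO+/-. Neither passed the filter on low counts, so neither was tested.

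**Figure D1:**
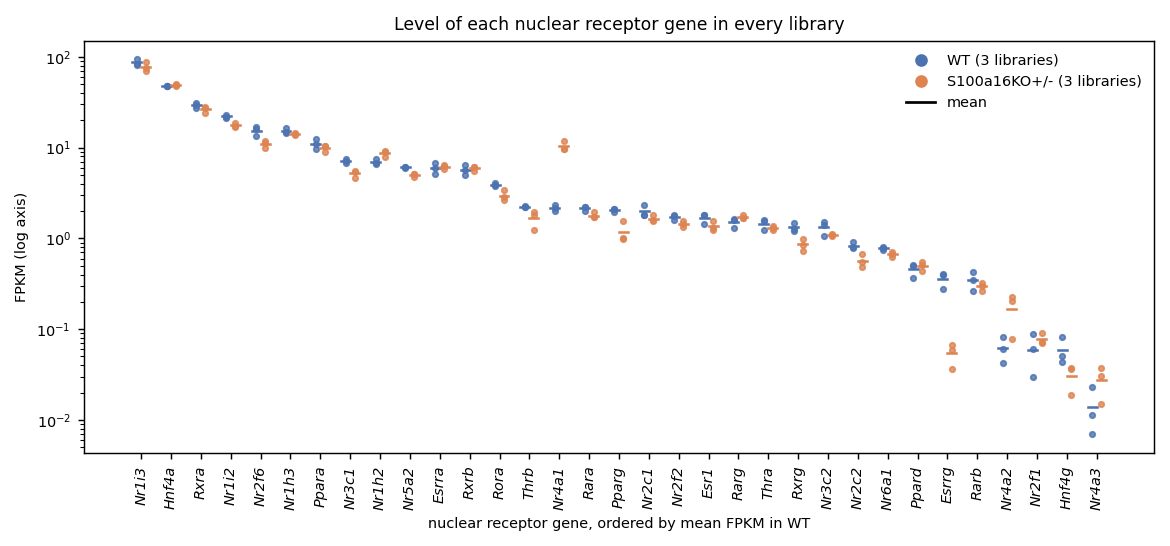
FPKM of 33 nuclear receptor genes (log axis) in each of the 3 WT and 3 S100a16KO+/- libraries, ordered by the WT mean, with short lines at the group means; Vdr is left out because most of its values are 0. Nr4a1 rises from 2.16 to 10.4 FPKM and Esrrg falls from 0.360 to 0.0546 FPKM. The 4 most abundant genes keep their order.

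Of the 32 receptor genes tested, 3 were higher and 11 lower in S100a16KO+/- at an adjusted p under 0.05, and 18 did not pass. This was 43.8% of the members, against 22.8% of all 15957 genes tested (11.6% higher and 11.2% lower). The members were chosen with earlier results of these data known, which may affect this share. Receptors are mostly well-expressed genes: where the mean over all libraries reached 1 CPM, 29% of all genes were called, against 13 of 29 members (44.8%, 2 higher and 11 lower). The median log2 change of the 32 members was -0.24, against 0.01 over all genes tested, and 22 of 32 were negative. The groups did not overlap for 2 members that were higher and 16 that were lower, against 19.2% and 18.6% of all genes. Most of the changes were small. Only Nr4a1, Nr4a2 and Esrrg also met the study's criterion of a fold of at least 2, which 4.52% of all genes did (2.9% higher and 1.62% lower). Of the 14 called members, 8 stayed called in all 16 other settings tried: Nr4a1, Esrrg, Pparg, Nr2f6, Nr3c1, Rora, Nr1i2 and Nr5a2. Nr1h2, Rxra, Rxrg, Esr1, Nr4a2 and Nr2c2 lost the call in at least 1 setting.

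**Figure D2:**
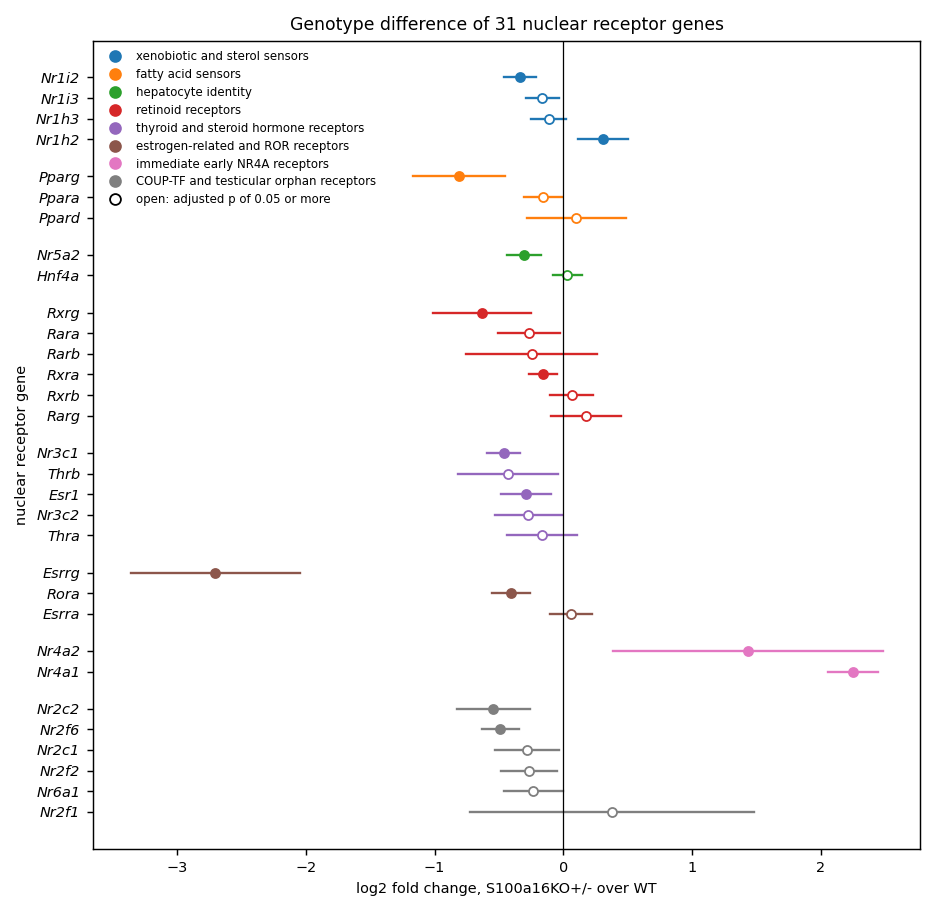
log2 fold change (S100a16KO+/- over WT, points) with its 95% confidence interval (lines) for 31 of the 32 nuclear receptor genes tested, coloured by role; Nr4a3 is left out because its counts lie near the level of 3 fragments. Filled points passed the test, and most lie left of 0 with the exceptions of Nr4a1 at 2.25, Nr4a2 at 1.44 and Nr1h2 at 0.31.

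The NR4A receptors, early-response genes whose transcription is switched on within minutes to hours by cAMP, calcium or stress, held the largest rise. Nr4a1, which in hepatocytes is known to promote glucose production, had 8.89, 8.96 and 7.69 CPM in the WT libraries and 37.3, 39.6 and 44.6 CPM in S100a16KO+/-. Every S100a16KO+/- library was thus far above every WT library. The mean rose 4.76 times, a log2 change of 2.25 (SE 0.09, adjusted p = 4.29e-10), and Nr4a1 made up 96.6 ± 0.421% of the FPKM of the 3 NR4A genes in WT and 98.2 ± 0.672% in S100a16KO+/-. Nr4a2 was scarce, with 0.220, 0.369 and 0.278 CPM in WT and 0.375, 0.980 and 1.0 CPM in S100a16KO+/-, from 15 to 26 and 26 to 72 counts. Its groups only just failed to overlap, because S100a16KO+/- replicate 1 lay next to the highest WT library. Its log2 change was 1.44 (SE 0.49, adjusted p = 0.048), and the call was lost with DESeq2, with limma on FPKM and without any 1 library other than S100a16KO+/- replicate 1 (adjusted p 0.0171 to 0.252 over the settings, the highest without both libraries that stood apart). Nr4a3 had 12, 6 and 4 counts in WT and 14, 17 and 7 in S100a16KO+/-, too few for a fold.

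The cAMP response element binding protein CREB is a known activator of NR4A genes and binds a palindrome of which TGACG is a half-site. The 250 bases before the RefSeq start sites (GRCm38.p6) of the NR4A genes that passed the test are shown. Both hold the half-site several times. Capitals mark TGACG on either strand, so that CGTCA is the half-site read on the other strand.
Nr4a1, chr15:101266596-101266845, plus strand: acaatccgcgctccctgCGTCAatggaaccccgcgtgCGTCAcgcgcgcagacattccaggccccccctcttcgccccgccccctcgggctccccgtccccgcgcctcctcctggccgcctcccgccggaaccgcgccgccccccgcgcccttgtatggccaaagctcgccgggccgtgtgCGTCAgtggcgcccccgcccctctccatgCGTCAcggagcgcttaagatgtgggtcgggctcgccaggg
Nr4a2, chr2:57124004-57124253, minus strand: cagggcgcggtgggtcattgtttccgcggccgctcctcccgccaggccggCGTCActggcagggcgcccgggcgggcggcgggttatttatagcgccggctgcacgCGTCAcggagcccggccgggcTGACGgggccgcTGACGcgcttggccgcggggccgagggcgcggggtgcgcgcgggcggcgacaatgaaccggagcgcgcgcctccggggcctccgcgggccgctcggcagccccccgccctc
The Nr4a1 window lies within the span of the gene in the table (chr15:101254269-101274795), before the start of a downstream promoter, and neither window overlaps an annotated exon. The promoter windows searched run from 250 bases before to 50 bases after each start. In them Nr4a1, Nr4a2 and Nr4a3 each held 4 TGACG sites, while 20.8% of all 32851 mouse promoters in the RefSeq table held at least 1 and 0.231% held 4 or more. All 4 sites of Nr4a1 were followed by CA, giving TGACGCA, which 2.12% of promoters held at least once. The 0.00304% that held it 4 or more times was the Nr4a1 promoter itself, so that share gives no background rate. Of the 31 members with a promoter in the table (50 promoters), 12 had TGACG and only Nr4a1 had TGACGCA. Counted by promoter, 28% of the members' promoters held TGACG and 2% TGACGCA, against 20.8% and 2.12% of all promoters. These matches describe the letters of the windows and say nothing about binding in these cells. Among 8 other immediate early genes, Fos (log2 change 0.89) and Fosb (1.12) rose, Atf3 (-1.60), Egr1 (-0.36) and Ier2 (-0.28) fell, and their summed level was 512 to 539 CPM in WT and 492 to 526 CPM in S100a16KO+/-.

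Esrrg, which encodes estrogen-related receptor gamma, an orphan receptor of energy metabolism, fell most. It had 2.90, 2.76 and 1.88 CPM in WT (198, 194 and 129 counts) and 0.260, 0.436 and 0.458 CPM in S100a16KO+/- (18, 28 and 33 counts). The groups were wide apart, although WT replicate 3 lay below the other WT libraries. The S100a16KO+/- mean was 15.3% of the WT mean, a log2 change of -2.70 (SE 0.31, adjusted p = 1.62e-05). The S100a16KO+/- counts were not far above the level of 3 fragments, 12 counts. Over the other settings Esrrg stayed called, with a log2 change from -2.87 to -0.37, the smallest with limma on log2(FPKM + 1). Esrra, its more abundant relative with 5.91 ± 0.821 FPKM in WT, was at 29.2 ± 2.86 and 30.4 ± 0.591 CPM, a log2 change of 0.06 with an interval from -0.10 to 0.22. That value turned to -0.01 without WT replicate 1, and also without both libraries that stood apart. Rora, a sterol-binding receptor of the clock and of lipid metabolism, had 59.2, 57.4 and 54.2 CPM in WT and 40.8, 40.7 and 47.5 CPM in S100a16KO+/-. All 3 S100a16KO+/- libraries lay below all 3 WT libraries, and the log2 change was -0.41 (SE 0.07, adjusted p = 0.00063).

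Among the fatty acid sensors, Pparg fell while the major liver form did not pass the test. PPAR gamma drives fat storage and is known to rise in fatty liver. Pparg had 7.44, 6.82 and 6.34 CPM in WT and 3.22, 3.56 and 4.93 CPM in S100a16KO+/-, with replicate 3 the highest of its genotype and still below every WT library. The log2 change was -0.81 (SE 0.17, adjusted p = 0.00254). Ppara, the receptor that turns on fatty acid oxidation in fasting, was at 47.4 ± 4.26 CPM in WT and 42.5 ± 1.92 in S100a16KO+/-. The groups did not overlap, but the log2 change of -0.16 (interval -0.31 to -0.01, adjusted p = 0.124) did not pass. Ppard, expressed in most tissues, was at 3.91 ± 0.758 and 4.19 ± 0.540 CPM, a log2 change of 0.10 with an interval from -0.28 to 0.48 that turned to -0.04 without WT replicate 3. Of the summed FPKM of the 3 PPAR genes, Pparg took 14.0 to 17.2% in WT and 8.39 to 12.3% in S100a16KO+/-.

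Most listed target genes of PPARA were lower in S100a16KO+/-. Of 29 tested, 25 fell and 3 rose, with a median log2 change of -0.60. Among all genes tested, 11.2% were lower and 11.6% higher, and 29% of those with a mean of at least 1 CPM were called. This list and those below were chosen with earlier results of these data known, so their counts are not a result about the lists. Fgf21, a liver hormone released in fasting, fell from 105.9 ± 11.5 to 7.64 ± 1.31 CPM, a log2 change of -3.80 (SE 0.13, adjusted p = 9.01e-08). The acyl-CoA thioesterases Acot1 (-1.93, from 36.0 ± 1.68 to 9.46 ± 0.712 CPM) and Acot2 (-1.31) and the carnitine acetyltransferase Crat (-1.18) followed. The groups of each of these 4 genes lay well apart. Enzymes of mitochondrial and peroxisomal fatty acid oxidation were among the rest, and the 3 that rose, picked out after their values were seen, were Pdk4 (0.89), Cpt1a (0.44) and Angptl4 (0.39). Cyp4a31 did not pass, with a log2 change of -1.13 and an adjusted p of 0.109. The 4 Acot genes and the Cyp4a genes have close paralogs, among which the authors' counting could divide reads.

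PPAR and RXR pairs, and pairs of HNF4A, bind a direct repeat of AGGNCA with 1 base between the copies. Of the 20 PPARA target genes with a promoter in the table (22 promoters), Fabp1 held the repeat in its window. Fabp1, the fatty acid binding protein of the liver, fell from 719 ± 46.8 to 493 ± 12.7 CPM (log2 change -0.54). F7 and Apoc2, a coagulation factor and an apolipoprotein from the HNF4A target list, also held it. The 30 bases around each site are shown with the repeat in capitals (GRCm38.p6), since these are the genes of the PPARA and HNF4A target lists in which the receptors' known element was found near the start. It was also found in Bco1, of the ligand handling list, and in the hepatocyte marker gene Asgr1.
Fabp1, chr6:71199804-71199833, plus strand: acaatcacTGACCTATGGCCTatatctgag
F7, chr8:13025992-13026021, plus strand: ctccccccTGACCTTTGCCCTcccggcagc
Apoc2, chr7:19678042-19678071, minus strand: ttctcttgAGGCCAGAGGTCAaccttccgt
In Fabp1 and F7 the repeat reads on the opposite strand. The sites began 67, 34 and 122 bases before the RefSeq start. Of the 30 bases shown, 7 in Fabp1 and none in F7 or Apoc2 lie in an annotated exon. Such a repeat, on either strand, was held by 0.381% of all promoters. No promoter of a member held it.

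Hnf4a differed least among the abundant receptors. It had 259.4 ± 12.2 CPM in WT and 264.9 ± 8.78 in S100a16KO+/-, a log2 change of 0.03 with an interval from -0.08 to 0.14. Of 17 HNF4A target genes, 6 rose and 2 fell, with a median of -0.00. Among them F7 (0.36) and the glucose-6-phosphatase gene G6pc (0.31) rose, and the thyroid hormone carrier gene Ttr (-0.33) fell. Apoc2 was at -0.20 with an adjusted p of 0.652. Nr5a2, whose product LRH-1 activates bile acid synthesis genes, had 42.7, 39.6 and 39.2 CPM in WT and 32.7, 33.2 and 32.4 CPM in S100a16KO+/-. The S100a16KO+/- libraries were nearly equal and all below WT, and the log2 change was -0.31 (SE 0.06, adjusted p = 0.00201).

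**Figure D3:**
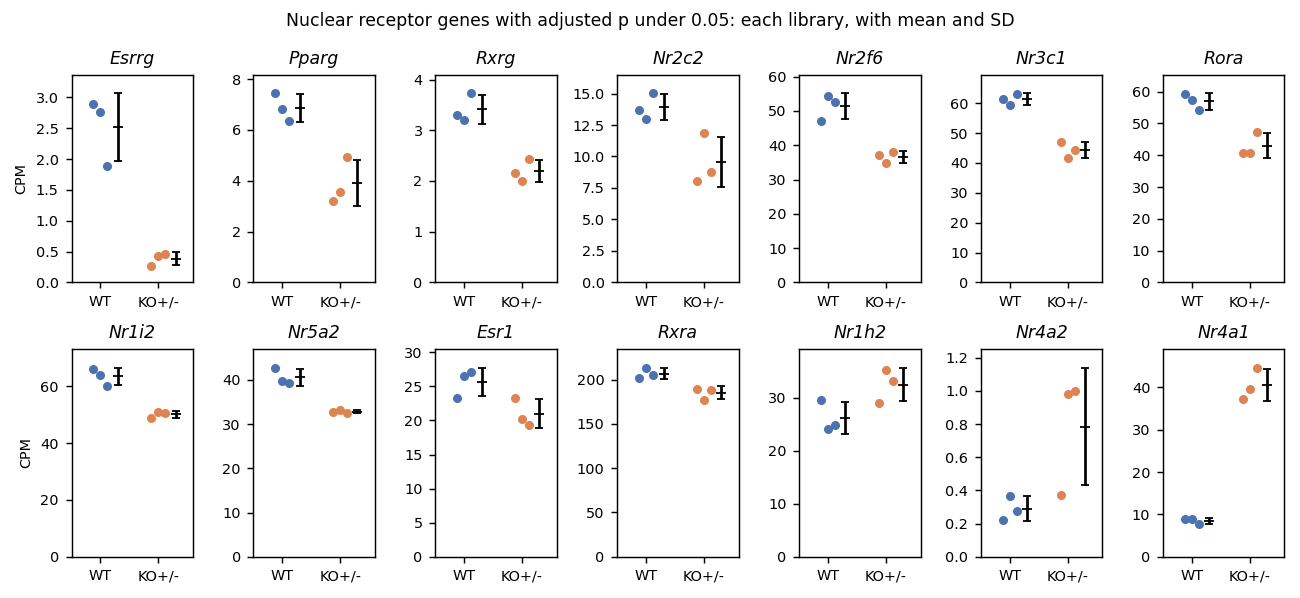
CPM in each library (points; WT blue, S100a16KO+/- orange) of the 14 nuclear receptor genes with an adjusted p under 0.05, with the mean and SD (n = 3) beside them, on axes that start at 0. The groups overlap for Esr1 and Nr1h2 and are far apart for Nr4a1 and Esrrg.

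PXR and CAR, which turn on the enzymes that clear drugs, bile acids and bilirubin, are encoded by Nr1i2 and Nr1i3. Nr1i2 (PXR) had 66.2, 64.0 and 60.2 CPM in WT and 48.8, 51.0 and 50.6 CPM in S100a16KO+/-, without overlap, and fell by 0.34 on the log2 scale (SE 0.06, adjusted p = 0.000599). Nr1i3 (CAR) was at 429 ± 18.9 and 383 ± 29.2 CPM, a log2 change of -0.16 (interval -0.29 to -0.04) with an adjusted p of 0.0621. Nr1i3 passed with DESeq2, without the filter on low counts, with counts divided by 4 and without S100a16KO+/- replicate 3, which had 417 CPM against 365 and 367 in the other S100a16KO+/- libraries (adjusted p 0.0146 to 0.301 over the settings). It overlaps Tomm40l on the opposite strand. Of 21 CAR and PXR target genes, 10 fell and 2 rose, with a median of -0.28. Gadd45b fell most (-1.68), followed by the CAR-inducible cytochrome Cyp2b10, from 327.6 ± 15.1 to 104.8 ± 5.95 CPM (-1.64, SE 0.06, adjusted p = 8.22e-11). Cyp2c29 (-0.83) and the retinal dehydrogenase gene Aldh1a1 (-0.66) came next. Cyp2c and Cyp3a genes also belong to families of close copies.

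The liver X receptors sense oxysterols and turn on cholesterol export and fat synthesis. Nr1h3, the form enriched in liver, was at 43.0 ± 2.11 and 39.8 ± 2.25 CPM (log2 change -0.11, interval -0.25 to 0.02). Nr1h2, the form found in most cells, had 29.7, 24.2 and 24.9 CPM in WT and 29.1, 35.3 and 33.2 CPM in S100a16KO+/-. The groups overlapped, since S100a16KO+/- replicate 1 lay below WT replicate 1. The log2 change of 0.31 (SE 0.09, adjusted p = 0.0257) no longer passed without WT replicate 2, WT replicate 3, S100a16KO+/- replicate 2 or S100a16KO+/- replicate 3 (adjusted p 0.00545 to 0.123 over the settings). Nr1h2 made up 28.9 to 33.7% of the FPKM of both LXR genes in WT and 36.4 to 38.9% in S100a16KO+/-. LXR target genes split in direction: 5 of 13 rose and 4 fell, with a median of 0.10. The fat synthesis genes Fasn (from 296.6 ± 6.08 to 99.8 ± 7.61 CPM, -1.57) and Srebf1 (-0.89) fell. The sterol exporter genes Abcg5 (from 74.9 ± 1.74 to 134.6 ± 5.84 CPM, 0.85) and Abcg1 (0.83) rose. Neither function moved as a whole: the sterol exporter gene Abca1 (-0.34) fell and the desaturase gene Scd1 (0.43) rose, both picked out after their values were seen.

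Retinoid X receptors are the partners of most of the sensors above. Rxra had 201.5, 213.3 and 205.6 CPM in WT and 189.8, 177.1 and 188.7 CPM in S100a16KO+/-. The groups did not overlap, but the log2 change of -0.16 (SE 0.05, adjusted p = 0.0403) no longer passed when any 1 library was left out or with limma on FPKM (adjusted p 0.0145 to 0.285 over the settings). Rxrg, the scarcest form, had 3.31, 3.20 and 3.73 CPM in WT and 2.16, 2.01 and 2.43 CPM in S100a16KO+/-. Its fall of 0.63 on the log2 scale (SE 0.18, adjusted p = 0.0195) did not pass without WT replicate 3, S100a16KO+/- replicate 1 or S100a16KO+/- replicate 2, nor without both libraries that stood apart (adjusted p 0.0822, range 0.0182 to 0.0890 over the settings). Rxrb was at 25.2 ± 2.27 and 26.4 ± 0.441 CPM (log2 change 0.07, interval -0.10 to 0.23). Of the RXR FPKM, Rxra took 80.2 to 81.5% in WT and 79.2 to 79.7% in S100a16KO+/-, and Rxrg 3.65 ± 0.357% and 2.58 ± 0.200%.

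None of the 3 retinoic acid receptor genes passed. Rara was at 10.5 ± 0.165 and 8.74 ± 1.09 CPM (log2 change -0.26, adjusted p = 0.11, range 0.0330 to 0.280 over the settings), and it passed without S100a16KO+/- replicate 2 and without both libraries that stood apart (-0.39, adjusted p = 0.0412). Rarb was at 2.07 ± 0.552 and 1.74 ± 0.104 CPM (-0.24, interval -0.75 to 0.26), and overlaps Top2b on the opposite strand. Rarg was at 7.24 ± 0.976 and 8.18 ± 0.289 CPM (0.18, interval -0.09 to 0.45). Of 7 retinoic acid target genes tested, 3 rose and 2 fell (median -0.03). Cyp26b1, which breaks down retinoic acid, rose from 46.1 ± 2.21 to 93.6 ± 4.48 CPM (1.02, SE 0.06, adjusted p = 2.11e-08). Lrat (0.81), which stores retinol as ester and is also on the stellate cell list, and the retinol transporter gene Stra6l (0.28) also rose.

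Both steroid receptors that passed were lower in S100a16KO+/-. Nr3c1, the glucocorticoid receptor gene that supports glucose production in fasting and stress, had 61.4, 59.3 and 63.2 CPM in WT and 47.1, 41.8 and 44.4 CPM in S100a16KO+/-. The groups lay well apart, with a log2 change of -0.46 (SE 0.06, adjusted p = 6.39e-05). Esr1, the estrogen receptor gene, had 23.2, 26.5 and 27.1 CPM in WT and 23.4, 20.2 and 19.3 CPM in S100a16KO+/-. Its groups overlapped at WT replicate 1 and S100a16KO+/- replicate 1. The log2 change was -0.29 (SE 0.09, adjusted p = 0.0319), and it did not pass with limma on FPKM or without WT replicate 2, WT replicate 3, S100a16KO+/- replicate 2 or S100a16KO+/- replicate 3 (adjusted p 0.0140 to 0.218 over the settings). Nr3c2, the mineralocorticoid receptor gene, was at 9.54 ± 1.33 and 7.91 ± 0.324 CPM (-0.27, adjusted p = 0.134, range 0.0364 to 0.400 over the settings), and passed without WT replicate 1 and without both libraries that stood apart (-0.41, adjusted p = 0.0364).

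Of 15 target genes of the glucocorticoid receptor tested, 9 rose and 4 fell, with a median of 0.20. Pck1, the gluconeogenic enzyme gene, rose from 2186 ± 52.9 to 5621 ± 165 CPM (log2 change 1.36, SE 0.04, adjusted p = 2.39e-11). Zbtb16 (1.34), the clock gene Per1 (1.13) and the insulin-like growth factor carrier gene Igfbp1 (0.75) also rose. Several genes of the list are also known to answer to cAMP, insulin or the clock.

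Neither thyroid hormone receptor gene passed. Thrb, the main form in liver, was at 18.7 ± 1.11 and 13.9 ± 3.59 CPM without overlap of the groups (log2 change -0.43, interval -0.81 to -0.04, adjusted p = 0.109). S100a16KO+/- replicate 3 was the lowest at 9.91 CPM, and the gene passed with DESeq2 and without S100a16KO+/- replicate 2 (adjusted p 0.0147 to 0.242 over the settings). Thra was at 7.55 ± 0.742 and 6.74 ± 0.654 CPM (-0.16, interval -0.44 to 0.11). All 5 thyroid hormone target genes tested passed, 4 lower and 1 higher, with a median of -0.58. Thrsp, a lipogenic gene, fell from 292.8 ± 9.59 to 133.4 ± 5.19 CPM (-1.13). The deiodinase gene Dio1 (-0.62) and the mitochondrial glycerol phosphate dehydrogenase gene Gpd2 (-0.58) fell, and the malic enzyme gene Me1 (0.44) rose.

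The 6 COUP-TF and testicular orphan receptors, which often repress genes at the elements used by other receptors, included 2 that fell. Nr2f6 had 47.1, 54.4 and 52.6 CPM in WT and 37.2, 34.7 and 37.9 CPM in S100a16KO+/-, without overlap (log2 change -0.49, SE 0.07, adjusted p = 8.49e-05). Nr2c2, known as TR4, had 13.7, 13.0 and 15.0 CPM in WT and 8.08, 11.8 and 8.76 CPM in S100a16KO+/-. S100a16KO+/- replicate 2 came closest to WT, and the log2 change was -0.54 (SE 0.13, adjusted p = 0.00825), a call lost with limma on FPKM (adjusted p 0.000307 to 0.0713 over the settings). Both overlap a gene on the opposite strand, Ocel1 with 644 to 910 counts and Mrps25 with 368 to 819 counts. Nr2f2, known from venous endothelium as well as from hepatocytes, was at 16.8 ± 1.5 and 13.9 ± 1.41 CPM without overlap (-0.27, adjusted p = 0.0763), while the endothelial markers summed to more in S100a16KO+/-. Nr2c1 (-0.28, adjusted p = 0.104) and Nr6a1 (-0.23, adjusted p = 0.14) also had lower values in every S100a16KO+/- library and did not pass. Nr2f1, at 0.346 ± 0.153 and 0.450 ± 0.0815 CPM, had a log2 change of 0.38 with an interval from -0.73 to 1.48, and of -0.08 without both libraries that stood apart. It overlaps A830082K12Rik on the opposite strand, which had 11 to 50 counts, against 13 to 35 for Nr2f1.

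Among 20 coregulator genes tested, 7 fell and 2 rose, with a median of -0.20, against 11.2% lower and 11.6% higher of all genes tested. The list was chosen with earlier results known. Ppargc1a stood out among them. It encodes PGC-1 alpha, the coactivator of PPARA, HNF4A and the estrogen-related receptors that is induced in fasting, and rose from 6.81 ± 0.673 to 26.5 ± 0.916 CPM, 3.88 times (log2 change 1.96, SE 0.09, adjusted p = 2.44e-09). The coactivator gene Ncoa1 (-0.71) fell, and the arginine methyltransferase gene Prmt1 (0.40) rose, a call lost with limma on FPKM and without any 1 library other than WT replicate 3 and S100a16KO+/- replicate 2.

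Of 19 tested genes that make, carry or break down receptor ligands, 6 rose and 7 fell (median -0.10). The largest change was that of Sult1e1, which inactivates estrogens by sulfation. It rose from 1.4 ± 0.211 to 16.5 ± 1.38 CPM, 11.8 times (log2 change 3.56, SE 0.14, adjusted p = 2.44e-10). Retsat, which saturates retinol, fell to 49.9% of WT, from 1150 ± 7.44 to 573 ± 26.2 CPM (log2 change -1.0). Lrat and Aldh1a1, given above, complete the largest changes of this list. Across all target, coregulator and ligand genes together, 34 of 137 tested rose and 59 fell, 67.9% in all. The share called was 22.8% of all genes tested and 29% of those whose mean reached 1 CPM. The lists were chosen with earlier results of these data known, so this difference cannot be read as a result about the lists.

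Receptor genes outside the 34 members were lower where they passed. Of 15 listed, 9 were in the table, 8 were tested, and 5 fell and none rose, with a median of -0.36. Among all genes tested, 11.2% were lower and 11.6% higher, and this list too was chosen with earlier results known. Nr0b2, whose product SHP is a repressor without a DNA-binding domain, fell from 43.6 ± 0.968 to 22.7 ± 1.18 CPM (-0.94, SE 0.06, adjusted p = 9.90e-08). Nr1h4, the bile acid receptor gene that controls it, fell from 166.1 ± 3.76 to 108.4 ± 2.16 CPM (-0.62). The clock repressor genes Nr1d1 (-0.41) and Nr1d2 (-0.23) fell too. Nr1d2 lost its call with limma on FPKM and without WT replicate 2, WT replicate 3 or S100a16KO+/- replicate 2.

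**Figure D4:**
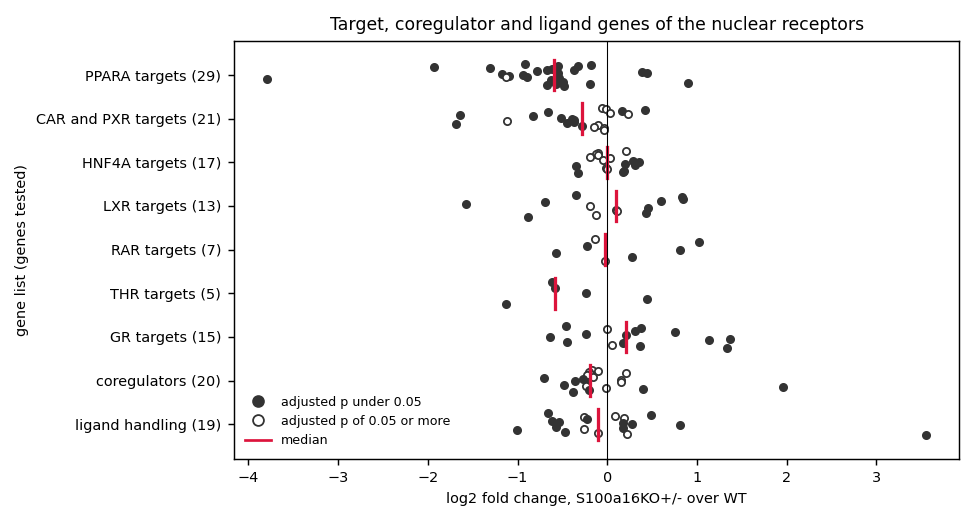
log2 fold change (S100a16KO+/- over WT) of each tested gene of 9 lists, named on the vertical axis with the number tested, filled where the adjusted p was under 0.05, with a red line at the median of the list. The PPARA targets lie mostly left of 0 with a median of -0.60, and the GR targets have a median of 0.20; Ppargc1a lies at 1.96 and Sult1e1 at 3.56.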

How the data were processed

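RNA of 6 hepatocyte preparations was sequenced as strand-specific poly(A) libraries with molecular identifiers, read in pairs. Per the labels, the authors used cutadapt, HISAT2, UMI-tools and StringTie on mm10, and deposited estimated counts and FPKM per gene. The estimated counts were whole numbers, about 4 per fragment, so 3 fragments were taken as 12 counts. The deposited FPKM values are per transcript length and per sequenced fragments. Whether counting used strand is not given in the sources used here.

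All genes were fitted with edgeR 4.0.16 (quasi-likelihood, robust, two-sided; TMM scaling, filterByExpr) in R 4.3.3, with Benjamini-Hochberg adjustment over 15957 genes. The script was tested on simulated data. Each SE is the log2 change divided by the root of the F statistic. Alternatives were DESeq2 1.42.0, median-ratio size factors, scaling without the 20 most abundant genes, no filter or a mean of 1 CPM, counts divided by 4, limma 3.58.1 on log2(FPKM + 1) and log2(FPKM + 0.1), a replicate block, each library left out, and, chosen after seeing the data, both libraries that stood apart left out. The study's criterion was an unadjusted p under 0.05 with a fold of at least 2.

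The members and gene lists were chosen with earlier results of these data known. Named genes were all members, with every library for those that passed, and up to 4 genes of each list with the largest change among those that passed, and some of these are not reported here. Promoters came from RefSeq (GRCm38.p6), where 31 members matched. Of the members, 23 had the same start and end in GENCODE M21, and 7 overlapped an opposite-strand gene above 12 counts. The 7 were Nr1i3, Hnf4a, Rarb, Esrra, Nr2c2, Nr2f1 and Nr2f6.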

Additional observations from a re-analysis of the deposited data

How the results depend on the processing

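At an adjusted p under 0.05, 8 to 11 members were lower and 1 to 3 higher when each library was left out in turn, and 8 to 13 were lower over all 16 other settings, the most with DESeq2. The count of higher members was 1 without WT replicate 2, WT replicate 3, S100a16KO+/- replicate 2 or S100a16KO+/- replicate 3, the calls of Nr1h2 and Nr4a2 being lost. Members past the study's criterion went from 3 to 1 with limma on log2(FPKM + 1), a scale that shrinks the change of scarce genes, and stayed at 3 without each library. Target, coregulator and ligand genes called higher were 26 to 33 and lower 55 to 60 without each library. Genes called in the whole table fell from 3643 to 2316 with limma on log2(FPKM + 1) and to 2305 with log2(FPKM + 0.1). The log2 fold change of Ppard reversed without WT replicate 3 (-0.0425, and up to 0.23 without 1 library), as did the log2 fold change of Esrra without WT replicate 1 (-0.0091, and up to 0.13) and without both libraries that stood apart (-0.0064), and the log2 fold change of Nr2f1 without both (-0.0764, and up to 0.73), none of which passed the test. Leaving out both gave 14 called members, but not the same ones: Nr4a2 and Rxrg lost the call and Rara and Nr3c2 gained it. Of the members' values under these settings, 448 kept direction and side of the threshold, 37 lost the call, 11 gained it and 4 reversed.

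Libraries with the same replicate number in both genotypes had correlations of their deviations of -0.01, -0.02 and 0.00. This measure cannot show whether the libraries were paired. It was also only 0.003 between WT replicate 1 and S100a16KO+/- replicate 2, which lay on the same side of the second principal component. With the replicate block 1 member was higher, and the calls of Nr1h2, Rxra, Esr1 and Nr4a2 were lost while that of Thrb was gained.

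With 3 libraries per genotype and no libraries from mice without alcohol, small changes of well-expressed receptors rest on the spread of few values. Depth limited Vdr, Hnf4g, Nr4a3 and Nr2f1, whose counts lay near the level of 3 fragments, and Esrrg in S100a16KO+/-, with 18 to 33 counts. It also limited Nr4a2, which had 15 to 26 counts in WT and an adjusted p in only 14 of the 16 other settings.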
